A study of Mus musculus with 12 samples.

Results

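Tsc22d3, Fkbp5, Sgk1, Lpin1, Hsd11b1 and Zbtb16, genes known as targets or partners of glucocorticoid action, were followed through the first 6 h of concanavalin A (ConA) hepatitis in mouse liver. All probe sets carrying one of these symbols were taken, which gave 14 probe sets for 6 genes, of 18193 genes measured by the array. The genes were selected on their measured values over time in these same arrays, namely a higher signal at 1 h and a lower one afterwards, so their levels over time are given as a description without a test.

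Whole livers came from male Balb/c mice of 8 to 10 weeks, with 12 arrays in all and 3 replicates at each time point. The control group was taken at 0 h and is called untreated in the sample labels, while the methods of the study speak of mice given phosphate-buffered saline. The other 3 groups received 20 mg/kg ConA, a plant lectin that activates T cells and NKT cells, through the tail vein, and were taken 1 h, 3 h or 6 h later. Controls stand at 0 h alone, so ConA, the injection and handling of the mouse, and the hour of the day cannot be told apart, and no level of corticosterone was used here.

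Glucocorticoids are adrenal steroids released under stress. They bind the glucocorticoid receptor, which is held in the cytosol by heat shock proteins and then enters the nucleus, where a receptor dimer binds a short DNA palindrome near its target genes. In liver the receptor turns on gluconeogenic enzymes and several inhibitors of inflammation, and it cooperates with other factors that respond to fasting and to cytokines. Several of the genes below also respond to such other signals, so none of them reports on the steroid alone.

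The DNA upstream of the start sites is shown first, because the letters of the receptor palindrome are the one feature that could be read from sequence. Promoter windows from RefSeq (build GRCm38.p6), running from 250 bases before to 50 bases after a start site, were matched for 5 of the 6 genes, all but Zbtb16. Both strands were searched for the full palindrome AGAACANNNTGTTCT, for its core ACANNNTGT and for one arm of it, AGAACA or TGTTCT. The full palindrome contains the core and both arms. It was in 3 of 32851 windows, or 0.00913%, and 1 of these 3 belonged to Sgk1. The core was in 6.85% of all windows and the single arm in 19% of them. Of the 12 windows of these genes, 1 held the full palindrome, 2 the core and 5 a single arm. Of 40 windows of 34 other glucocorticoid-induced genes from the lists below, 0 held the full palindrome, 3 the core (7.5%) and 1 a single arm (2.5%). The following stretches carry the full palindrome of Sgk1 and the single arms of Tsc22d3 and Lpin1, with the matching bases in capitals.
Sgk1, chr10:21993671-21993745, plus strand: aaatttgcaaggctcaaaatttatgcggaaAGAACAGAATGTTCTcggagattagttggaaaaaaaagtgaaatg
Tsc22d3, chrX:140600672-140600737, minus strand: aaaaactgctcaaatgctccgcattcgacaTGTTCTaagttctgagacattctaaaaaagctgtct
Lpin1, chr12:16611094-16611159, minus strand: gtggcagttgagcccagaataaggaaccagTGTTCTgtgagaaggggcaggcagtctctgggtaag

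The first capital of the Sgk1 palindrome lay 189 bases before the start site at position 21993890. That of the Tsc22d3 single arm lay 185 bases before the start at 140600522, and that of the Lpin1 single arm 163 bases before the start at 16610966. Sgk1 has 6 annotated windows, of which 2 held the core and 3 a single arm, while Tsc22d3 has 3 windows and a single arm in 1 of them. The single windows of Fkbp5 and Hsd11b1 held none of the 3 patterns. A match is a run of letters and not a measured binding site, and a window without a match says nothing of sites farther away, where many receptor sites of these genes are known to lie.

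Values are the deposited signals in linear units. A log2 difference is the difference between group means of log2 signals, with its standard error (SE) from a limma fit and n = 3 arrays in each group. For the 6 genes the fit ran over all probe sets, and for list genes it ran over all genes. The median log2 difference of all genes was 0.08 at 1 h, -0.21 at 3 h and 0.02 at 6 h against control, and -0.31 for 3 h against 1 h. Differences of the 6 genes from control at 3 h are therefore also given relative to that median, while folds and list genes are given as measured.

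Tsc22d3 lies on chrX:140539528-140600522 and encodes GILZ, a leucine zipper protein that binds and restrains NF-kB and AP-1. Its brightest probe set gave signals of 490.1, 383 and 518 in the control livers, 862, 867 and 1007 after 1 h, 161, 163 and 152 after 3 h, and 198, 280.4 and 279 after 6 h. No neighbouring groups overlapped, in the order 3 h, 6 h, control and 1 h from low to high. The log2 difference from control was 0.98 (SE 0.16) at 1 h, a 1.98-fold higher level. At 3 h it was -1.54 (SE 0.16), or -1.32 relative to the median of all genes, and at 6 h it was -0.88 (SE 0.16). The level at 3 h was 5.73-fold lower than at 1 h.

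The 4 probe sets of Tsc22d3 did not behave alike. A second bright one, 1425281_a_at, had log2 differences of 1.01 (SE 0.19), -1.70 and -0.98 at 1, 3 and 6 h. Probe set 1425557_x_at, whose suffix marks probes that may cross-hybridise, had only 0.24, -0.49 and -0.31, and its 1 h arrays overlapped the controls. Probe set 1444365_at was dim, with signals from 2.58 to 20.2 over the 12 arrays, and had its highest group mean at 3 h. With the mean over all 4 probe sets in place of the brightest, the log2 difference of Tsc22d3 was 0.54 at 1 h and -0.71 at 3 h against control, -1.25 for 3 h against 1 h and 0.003 for 6 h against 3 h.

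Fkbp5 lies on chr17:28398753-28486149 and encodes FKBP51, a co-chaperone that lowers the receptor's affinity for hormone and so closes a feedback loop. Its brightest probe set gave 188, 225 and 196 in controls, 455, 313 and 484 after 1 h, 389, 282 and 267 after 3 h, and 612, 750 and 952 after 6 h. All treated livers lay above all controls, the 1 h and 3 h groups overlapped, and the 6 h group was the highest. The log2 difference from control was 1.02 (SE 0.22) at 1 h, 0.61 (SE 0.22) at 3 h, or 0.82 relative to the median of all genes, and 1.91 (SE 0.22) at 6 h. Between 3 h and 1 h it was -0.41 (SE 0.22), but -0.11 relative to that median, -0.11 after quantile normalization and -0.07 with the same median for each array. Fkbp5 thus did not return toward the control level by 6 h. Its log2 difference between 6 h and 1 h was 0.89 (SE 0.22), a 1.85-fold higher level, and every 6 h array lay above every 1 h array.

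A second Fkbp5 probe set, 1448231_at, had log2 differences of 0.88 (SE 0.36), 0.16 and 1.47 at 1, 3 and 6 h, in the same order of groups. The remaining one, 1447736_at, stayed between 0.15 and 4.82 on all arrays. Most of its values lay under the floor of 3.04 that was set for the table, so it has no usable course.

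Sgk1 lies on chr10:21882184-21999903 and encodes a kinase of the AGC family that regulates ion channels and phosphorylates FOXO factors. Its only probe set gave 249, 154 and 185 in controls, 888, 602 and 599 after 1 h, 219.8, 243 and 229 after 3 h, and 214, 347 and 298 after 6 h. The 1 h group stood alone above all other arrays. The log2 difference from control was 1.83 (SE 0.24) at 1 h, a 3.57-fold higher level, and it was 0.27 at 3 h and 0.55 at 6 h (SE 0.24 each), with arrays overlapping the controls at both later times. Relative to the median of all genes the value at 3 h was 0.48. The 3 h level was 2.97-fold lower than the 1 h level. The difference between 6 h and 3 h was 0.28 (SE 0.24) and turned to -0.10 when each array was scaled to the same median, so the order of these 2 times is not settled.

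Lpin1 lies on chr12:16535669-16653903 and encodes lipin 1, a phosphatidate phosphatase that also acts as a coactivator in fasting liver. Its brightest probe set gave 509, 389.8 and 538 in controls, 1308, 1146 and 1479 after 1 h, 217, 172 and 194 after 3 h, and 426, 817 and 667 after 6 h. The 1 h group lay above and the 3 h group below all other arrays, while the 6 h arrays overlapped the controls. The log2 difference from control was 1.46 (SE 0.24) at 1 h, -1.29 (SE 0.24) at 3 h and 0.37 (SE 0.24) at 6 h. Relative to the median of all genes the value at 3 h was -1.08. The level at 3 h was 6.74-fold lower than at 1 h, the widest such gap among these genes, and at 6 h it was 3.18-fold higher than at 3 h. A second probe set, 1418288_at, gave nearly the same course, with 1.54 (SE 0.15), -1.29 and 0.14 at 1, 3 and 6 h.

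Zbtb16 lies on chr9:48651797-48836225 and encodes PLZF, a zinc finger repressor that glucocorticoids induce in many cells and that also defines the NKT cell lineage. Its brightest probe set gave 84.5, 153 and 86.4 in controls, 297, 465 and 769 after 1 h, 148, 40.4 and 219 after 3 h, and 313, 644 and 645 after 6 h. The 1 h and 6 h groups overlapped each other and lay above all arrays of the other 2 groups, which also overlapped. The log2 difference from control was 2.19 (SE 0.63) at 1 h, 0.07 (SE 0.63) at 3 h, or 0.29 relative to the median of all genes, and 2.29 (SE 0.63) at 6 h. Zbtb16 had the widest spread between arrays of these genes, with a residual SD of 0.82 on the log2 scale against 0.12 to 0.30 for the other 5. The value at 3 h moved between -0.42 and 0.79 on leaving out 1 array at a time, with the higher end without replicate 2 of that time.

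The other probe sets of Zbtb16 also had higher group means at 1 h and 6 h than at 3 h. Probe set 1419874_x_at had log2 differences of 2.60 (SE 0.64), 0.44 and 2.90, and 1427638_at had 0.87 (SE 0.44), -0.08 and 1.40. On 1427638_at the 1 h arrays, at 21.8, 47.5 and 41.1, overlapped the control arrays at 15.1, 34.5 and 13.5.

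Hsd11b1 lies on chr1:193221640-193264045 and encodes the hepatic enzyme that regenerates active corticosterone from its inert keto form. Its only probe set gave 5065, 4755 and 4381 in controls, 5413, 4650.1 and 4438 after 1 h, 4081, 3805 and 4155 after 3 h, and 3360.1, 3766 and 3120.3 after 6 h. The 1 h arrays overlapped the controls, and the 6 h arrays lay below all others. The log2 difference was 0.03 (SE 0.11) at 1 h and -0.47 (SE 0.11) at 6 h, a 1.39-fold lower level. At 3 h it was -0.24 (SE 0.11), but -0.02 relative to the median of all genes and 0.01 when each array was scaled to the same median, so no direction is given for that time.

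**Figure D1:**
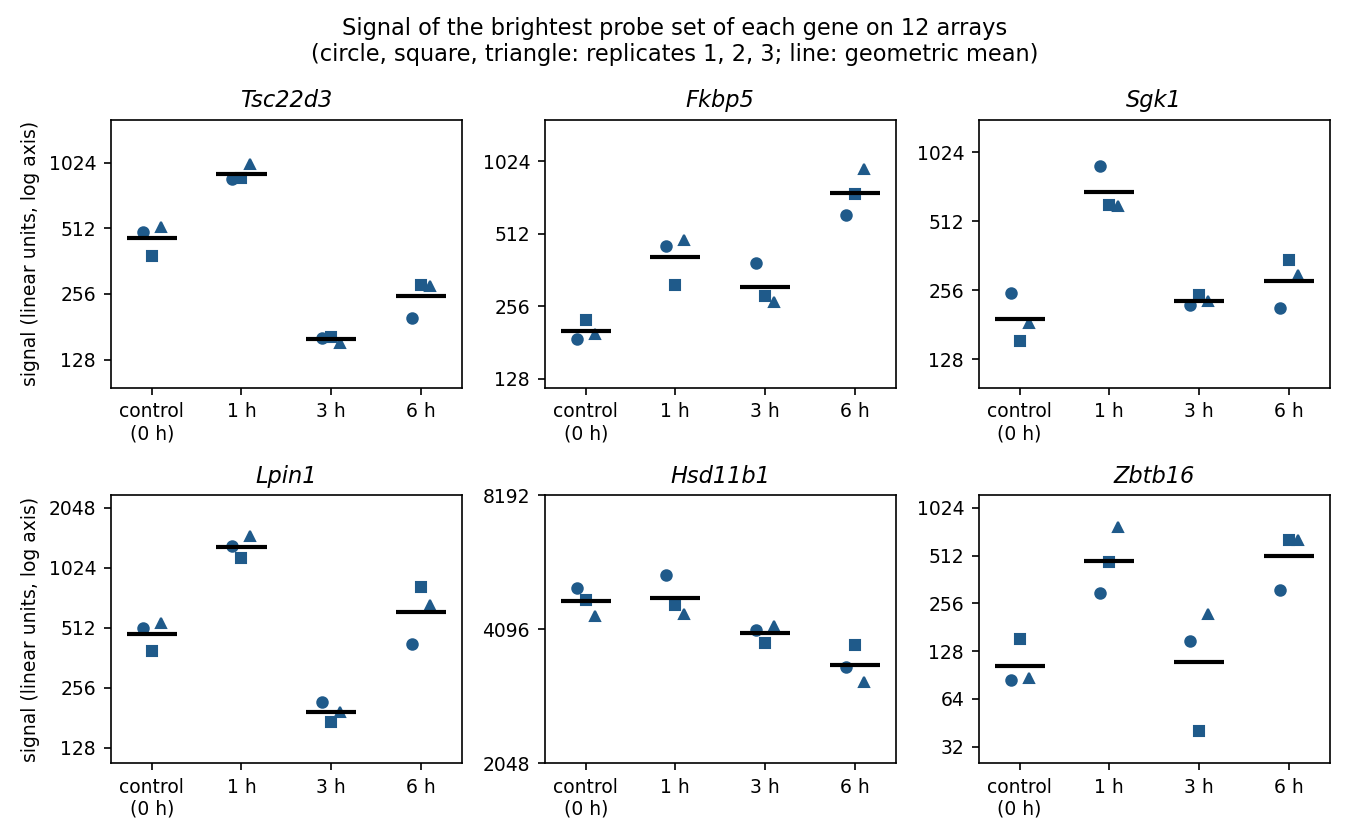
Signals of the brightest probe set of each of the 6 genes on a log2-spaced axis, by time after ConA, with 1 symbol for each array (3 per time point) and a line at the geometric mean. Tsc22d3 and Lpin1 peak at 1 h and lie below the controls at 3 h, Sgk1 stands out at 1 h alone, Fkbp5 is highest at 6 h, Zbtb16 is above the controls at 1 h and 6 h, and Hsd11b1 has no peak at 1 h.

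Set against all genes, 5 of the 6 had every 1 h array above every control array (Hsd11b1 did not), where 10.6% of all 18193 genes did. Likewise 5 of 6 had every 3 h array below every 1 h array (Fkbp5 did not), where 33.9% of all genes did. At 3 h, 3 of 6 (Tsc22d3, Lpin1 and Hsd11b1) lay wholly below the controls, against 28.7% of all genes. Hsd11b1 is counted as measured. Relative to the median of all genes its 3 h log2 difference was -0.02 against control and 0.04 against 1 h. At 6 h, 2 of 6 (Fkbp5 and Zbtb16) lay wholly above the controls, against 22.1% of all genes. The course over time chose the genes, so nothing is read from any of these counts.

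The 6 genes therefore had 4 courses. Sgk1 was high at 1 h and back among the control and later values at 3 h. Tsc22d3 and Lpin1 were high at 1 h and below the control level at 3 h, and at 6 h Lpin1 overlapped the controls while Tsc22d3 lay below them. Fkbp5 and Zbtb16 were above the controls at 1 h and at 6 h. At 3 h Zbtb16 overlapped the controls, while Fkbp5 overlapped its own 1 h values. Hsd11b1 had no higher level at 1 h and was lowest at 6 h.

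**Figure D2:**
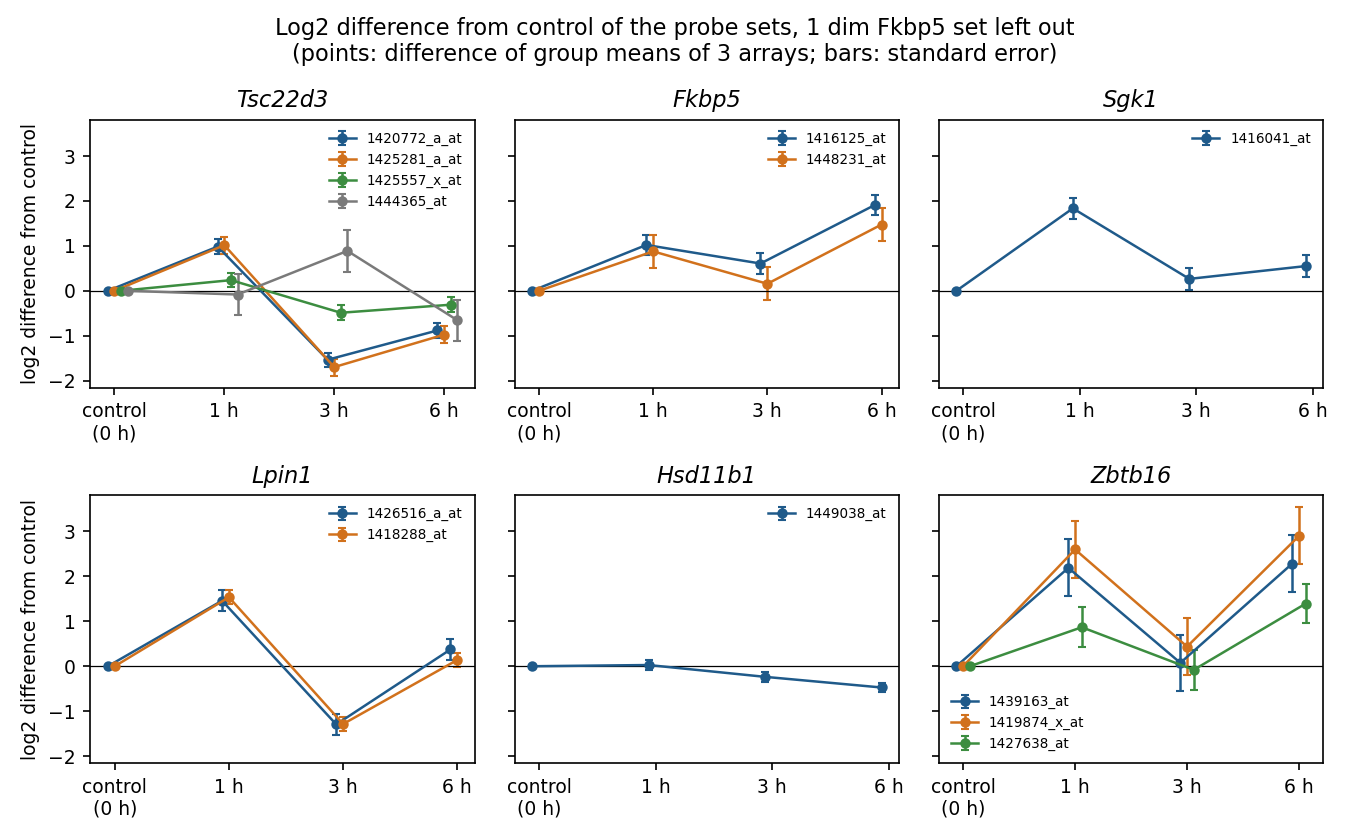
Log2 difference from control at 1, 3 and 6 h for 13 of the 14 probe sets of the 6 genes (1 dim Fkbp5 probe set is left out), with points for the difference between group means of 3 arrays and bars for the standard error. Probe sets of Lpin1 and of Fkbp5 run in the same order of time points, while of the 4 Tsc22d3 probe sets 1 has smaller differences and 1 dim one departs in order.

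Whether the genes varied together among livers of the same time point was tested, because deviations from the time point mean do not depend on the differences that chose the genes. Over 12 arrays and 15 pairs of genes, the closest pair was Tsc22d3 and Lpin1, with Pearson r = 0.88 (exact permutation within time points, two-sided, p = 0.0201, Benjamini-Hochberg adjusted p = 0.301) and Spearman rho = 0.85 (exact permutation p = 0.0108, adjusted p = 0.162). Among controls the replicates ranked 2, 1 and 3 from low to high for both genes, and at 6 h they ranked 1, 3 and 2 for both. The ranks differed at the other times, with 1, 2 and 3 for Tsc22d3 against 2, 1 and 3 for Lpin1 at 1 h, and 3, 1 and 2 against 2, 3 and 1 at 3 h. Without the 2 arrays farthest from the median of Tsc22d3, r was 0.70. The next pairs were Sgk1 and Lpin1 with r = 0.61 (exact permutation, adjusted p = 0.53) and Sgk1 and Hsd11b1 with r = 0.59 (exact permutation, adjusted p = 0.53). No pair passed the threshold after adjustment.

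Genes with the most similar course were sought among 8891 brighter genes by Pearson r of log2 signals over the 12 arrays, which share their time points, so the values are a description only. Closest to Tsc22d3 were Larp4b (r = 0.96), the aryl hydrocarbon receptor gene Ahr (0.96), Hnrnpll (0.95), Klhl2 (0.94) and Klf15 (0.94), a Krüppel-like factor of fasting metabolism. Closest to Lpin1 were Klf3 (0.97), Shld2 (0.97), Zbtb24 (0.96), Gin1 (0.96) and the immediate-early gene Ier2 (0.95). Ier2 had mean signals of 178 in controls, 388 at 1 h and 106 at 3 h.

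Closest to Sgk1 were Zfp35 (0.91), the heat shock cochaperone gene Dnajb1 (0.91), Acer2 (0.90), the AP-1 partner gene Jdp2 (0.90) and Ttpa (0.89). Dnajb1 had mean signals of 167 in controls, 584 at 1 h and 160.5 at 3 h, and Jdp2 had 26.6, 208 and 27.4. Closest to Fkbp5 were Skil (0.94), an inhibitor of SMAD signalling, Mettl6 (0.94), C9orf72 (0.94), Aopep (0.93) and Asb6 (0.93). Skil had mean signals of 151, 271 and 232 at the same 3 times.

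Other genes that glucocorticoids induce were taken from 2 lists of textbook targets, and for these the fit gave p-values. All gene lists were written with earlier results of these data known, so their counts are not independent of the data. Of 22 regulatory genes, all measured, 7 rose at 1 h and none fell (limma, adjusted p under 0.05, with 13 higher and 0 lower at an unadjusted p under 0.05), where 1.50% of all genes rose and 0.148% fell. With only the compared groups in the fit, 4 passed at 1 h. The shares of all genes, here and below, are at the adjusted threshold. No such share is given at an unadjusted p, so nothing is read from the unadjusted counts of any list. The 7 were Mt1, Mt2, Cebpd, Cebpb, Zfp36, Nfkbia and Rhob, most of which are known to answer inflammatory signals as well. The median log2 difference of the list was 0.83, against 0.08 for all genes.

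The metal-binding metallothionein gene Mt2 gave 166, 364 and 54.5 in controls and 3249, 3285 and 3177 at 1 h, a log2 difference of 4.45 (SE 0.53, limma adjusted p = 0.0025). Mt1 rose by 3.70 (SE 0.50, adjusted p = 0.0061). Cebpd, a transcription factor of the acute phase, gave 80.1, 61.7 and 65.7 in controls and 604, 513 and 465 at 1 h, a log2 difference of 2.93 (SE 0.21, adjusted p = 8.7e-05). Zfp36, which encodes an mRNA decay factor, gave 394, 367 and 357 in controls and 2931, 2897 and 2225 at 1 h, a log2 difference of 2.84 (SE 0.13, adjusted p = 7e-06). In each of these genes no treated array overlapped a control.

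Later the regulatory list split. At 3 h 9 of the 22 rose and 6 fell (Per1, Per2, Klf9, Klf15, Sesn1 and Arrdc2), where 5.15% of all genes rose and 14.7% fell. At 6 h 13 rose and 2 fell (Per2 and Klf15), where 15.4% of all genes rose and 12.7% fell. The median of the list was 0.11 at 3 h and 0.82 at 6 h. Those that fell at 3 h include the clock genes Per1 and Per2, of which Per1 was among those that rose at 6 h. Klf15, which was close in course to Tsc22d3, gave 917, 896 and 864 in controls, 1285, 1338 and 1519.7 after 1 h, 111, 116 and 138 after 3 h, and 292, 583 and 419 after 6 h. Its log2 difference was 0.63 (SE 0.21, adjusted p = 0.29) at 1 h and -2.88 (SE 0.21, adjusted p = 3.3e-05) at 3 h. Without control replicate 2, 3 rather than 6 genes fell at 3 h. At 6 h 1 rather than 2 fell on leaving out any 1 of the 3 controls, or replicate 2 or 3 of that time.

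All 7 regulatory genes that rose at 1 h, Mt1, Mt2 and Cebpd among them, were higher at all 3 times. None of the genes that fell at 3 h had passed the threshold at 1 h. Mt2 rose by 5.42 at 3 h and by 5.93 at 6 h (adjusted p = 0.00016 and 5.3e-05), Mt1 by 4.44 and 4.90, and Cebpd by 3.04 and 3.38. Rhob, a small GTPase gene, peaked at 3 h, with a log2 difference of 3.49 (SE 0.14, adjusted p = 8.2e-07) and signals of 4347, 4525 and 4424 against 383, 425 and 374 in controls. Cdkn1a, which encodes the cell cycle inhibitor p21, gave 330.3, 794 and 1098 at 6 h against 9.39, 12.3 and 26.4 in controls, a log2 difference of 5.51 (SE 0.46, adjusted p = 3.5e-05).

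Of 19 hepatic metabolic genes that glucocorticoids induce, 18 were measured and none passed the limma threshold at 1 h in either direction. Only 1.50% of all genes rose and 0.148% fell at that time, so nothing is read from none passing in so short a list. At an unadjusted p under 0.05, 8 were higher and 0 lower, and 1 gene passed when only the compared groups were fitted or when the variance followed intensity. The median log2 difference at 1 h was 0.51, against 0.08 for all genes. Igfbp1, which encodes a secreted binder of insulin-like growth factors, was at 774, 798 and 865 in controls and at 6682, 5554 and 3377 at 1 h, with a log2 difference of 2.62 (SE 0.72, adjusted p = 0.15). That SE is pooled over all times and includes the spread of its 3 h arrays, at 2266, 380 and 2665. Without replicate 2 of 3 h, 1 gene of the list passed at 1 h.

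At 3 h 1 of the 18 rose (Orm1) and 7 fell, against 5.15% and 14.7% of all genes. At 6 h 3 rose (Igfbp1, Glul and Orm1) and 5 fell, against 15.4% and 12.7% of all genes. With the arrays scaled to the same median, 3 rose and 6 fell at 3 h, where 1438 of all 18193 genes rose and 1152 fell. G6pc, the gene of glucose 6-phosphatase, gave 1548, 2079.5 and 1463 in controls and 33.7, 2.02 and 15.4 at 3 h, of which the second lay under the floor. Its log2 difference was -7.17 (SE 0.93, adjusted p = 0.00085) at 3 h and -4.70 (SE 0.93, adjusted p = 0.0043) at 6 h. Ppargc1a, the fasting coactivator gene, gave 270.4, 219 and 129 in controls, 51.5, 45.9 and 75.3 at 3 h, and 17.6, 23.7 and 20.2 at 6 h, with log2 differences of -1.81 and -3.27 (SE 0.28, adjusted p = 0.0021 and 3.8e-05).

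Mfsd2a, a lysophospholipid transporter gene, had a log2 difference of 1.61 (SE 0.42, adjusted p = 0.13) at 1 h and -1.73 (adjusted p = 0.019) at 3 h. Its signals were 684, 785 and 589 at 1 h and 71.3, 52.6 and 80.7 at 3 h. Foxo1, a transcription factor gene of gluconeogenesis, had -1.49 (SE 0.23, adjusted p = 0.0023) at 3 h. At 6 h Igfbp1 rose by 2.66 (SE 0.72, adjusted p = 0.021), and the aspartate aminotransferase gene Got1 had a log2 difference of -1.82 (SE 0.23, adjusted p = 0.00042). Without control replicate 1, control replicate 2 or replicate 2 of the 3 h group, 5 rather than 8 genes of the list passed at 3 h.

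The receptor and the genes that serve it were read from a list of 26, of which 20 were measured. None passed at 1 h (limma, with 2 higher and 0 lower at an unadjusted p under 0.05), and the median was 0.13. At 1 h only 1.50% of all genes rose and 0.148% fell, so nothing is read from none passing in so short a list. At 3 h 2 rose and 1 fell, against 5.15% and 14.7% of all genes. At 6 h 4 rose and 5 fell, against 15.4% and 12.7% of all genes. Quantile normalization gave 4 and 8 at 6 h, where 2589 of all 18193 genes rose and 3227 fell. Arrays scaled to the same median gave 3 and 7, where 2255 of all genes rose and 3143 fell. Nr3c1, the glucocorticoid receptor gene, gave 527, 527 and 382 in controls, 519.8, 445 and 402 after 1 h, 378, 367 and 363 after 3 h, and 266, 259.6 and 262 after 6 h. Its log2 difference was -0.06 (SE 0.14, adjusted p = 0.93) at 1 h, -0.36 (adjusted p = 0.1) at 3 h and -0.85 (adjusted p = 0.0015) at 6 h, when every array lay below every control.

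Nr3c2, the mineralocorticoid receptor gene, fell by 1.57 (SE 0.24, adjusted p = 0.001) at 6 h. Fkbp4, whose product FKBP52 competes with FKBP51 for the receptor complex, fell by 1.54 (SE 0.25, adjusted p = 0.0014), at the time when Fkbp5 was at its highest. Akr1d1, a steroid reductase gene that clears glucocorticoids, fell by 1.12 (SE 0.31, adjusted p = 0.023). At 3 h the coactivator gene Ncoa1 fell by 0.77 (SE 0.12, adjusted p = 0.0026), and the corepressor gene Nrip1 and the Mediator gene Med1 rose by 0.63 and 0.39 (adjusted p = 0.023 and 0.031). Without control replicate 1, control replicate 2 or replicate 1 of the 3 h group, 1 rather than 3 of these passed at 3 h.

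Paralogues are relatives of the 6 genes within a gene family. The list held none for Hsd11b1, and Fkbp4, a relative of Fkbp5, was counted with the receptor genes above. Of 24 listed, 23 were measured and none passed the threshold at 1 h (limma, with 1 higher and 2 lower at an unadjusted p under 0.05), with a median of 0.05. Here too nothing is read from none passing, as only 1.50% of all genes rose and 0.148% fell at 1 h. At 3 h 0 rose and 9 fell (0 and 14 at an unadjusted p under 0.05), where 5.15% of all genes rose and 14.7% fell. At 6 h 3 rose and 3 fell, where the shares of all genes were 15.4% and 12.7%. Scaling to the same median gave 0 and 5 at 3 h, and 2 and 6 at 6 h. Under that scaling 1438 of all 18193 genes rose and 1152 fell at 3 h, and 2255 and 3143 at 6 h. Tsc22d1 fell, with log2 differences of -2.81 (SE 0.21, adjusted p = 3.5e-05) at 3 h and -3.23 (adjusted p = 1.1e-05) at 6 h, while Tsc22d2 rose by 1.13 (SE 0.15, adjusted p = 0.00058) at 6 h.

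Sgk2 fell by 1.31 (SE 0.27, adjusted p = 0.0086) at 3 h and by 2.85 (adjusted p = 7.3e-05) at 6 h, with log2 differences of 0.07 at 1 h for Sgk2 and 0.08 for Sgk3. Lpin2 fell by 2.25 (SE 0.20, adjusted p = 9.3e-05) and Lpin3 by 2.10 (SE 0.59, adjusted p = 0.035) at 3 h, the time at which Lpin1 was lowest too. Lpin3 was dim, at 15.1, 1.42 and 2.02 at 3 h against 19.7, 19.7 and 28.5 in controls, and its last 2 values at 3 h lay under the floor, which sets the size of that difference. At 6 h Lpin2 still had a log2 difference of -2.07 (adjusted p = 8.4e-05), and Lpin3 was at -0.06 (adjusted p = 0.98). The difference between a gene and its paralogue was not tested. Since Sgk1 and Lpin1 were chosen for a higher signal at 1 h, nothing is read from their contrast with paralogues at that time.

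**Figure D3:**
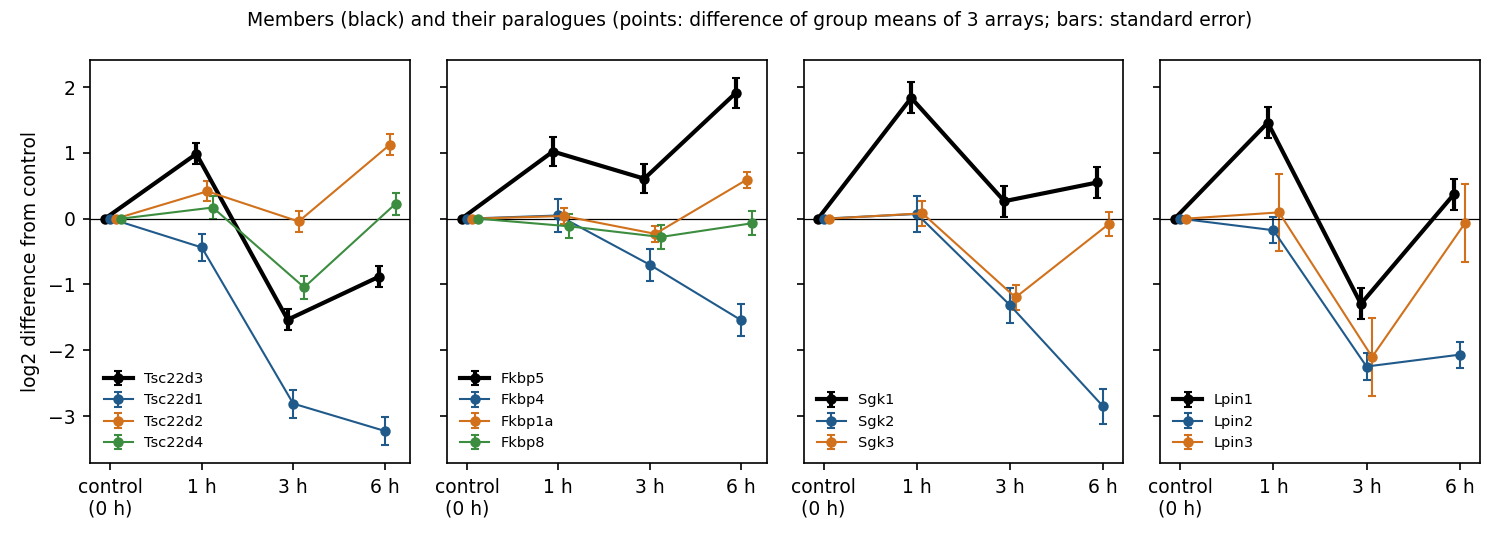
Log2 difference from control for Tsc22d3, Fkbp5, Sgk1 and Lpin1 (black) and up to 3 relatives each, by time, with points for the difference between group means of 3 arrays and bars for the standard error. The black lines alone stand near or above 1 at 1 h, but these genes were chosen for a higher signal at 1 h, so nothing is read from that contrast. Tsc22d1, Sgk2 and Lpin2 lie below -1 at both later times. Of the Fkbp relatives only Fkbp4, Fkbp1a and Fkbp8 are drawn.

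The livers also changed in cell markers, and in whole tissue a different number of cells of a type and a different amount of RNA per cell cannot be told apart. Hepatocyte markers were bright, as the labelled tissue requires, with 8 of 10 measured. Their signals summed to 70714 to 77099 in controls, 72259 to 78971 at 1 h, 71470 to 74486 at 3 h and 76779 to 81102 at 6 h. None of them passed at 1 h, and Fgb alone passed, rising, at 3 h and at 6 h. Neutrophil markers, 10 of 12 measured, summed to 116 to 160.3 in controls, 895 to 1236 at 1 h, 1559.9 to 2214 at 3 h and 1726 to 2671 at 6 h, with 5, 7 and 10 of them rising. Most of the treated sums came from S100a8 and S100a9, at 524 and 496 on replicate 1 of 1 h. Of the markers that did not pass at 1 h, Camp, Ngp and Ltf had log2 differences of -0.03, 0.48 and 0.32. T and NKT cell markers, 12 of 14 measured, summed to 108 to 129 in controls, 109 to 199 at 1 h, 162 to 209.6 at 3 h and 229.6 to 313 at 6 h, with 0, 2 and 4 rising (3 at 1 h at an unadjusted p under 0.05). Their signals were low, and Cd4 lay under the floor on all 1 h and 3 h arrays. Kupffer cell sums ran from 1739 to 2370.4 in controls, 2216 to 2775 at 1 h, 1471 to 1736 at 3 h and 1513 to 1984 at 6 h, with Marco under the floor in controls. Sinusoidal endothelial sums ran from 1170.3 to 2385.5, 2113 to 2351, 1416 to 1591 and 1586 to 1785 in the same order. Of 9 Kupffer cell markers 0 passed at 1 h (3 higher at an unadjusted p under 0.05, list median 0.42 against 0.08 for all genes), 2 fell at 3 h, and at 6 h 2 fell and 1 rose, while of 9 endothelial markers 0 passed at 1 h (1 higher at an unadjusted p under 0.05), 2 fell at 3 h, and 3 fell and 2 rose at 6 h. Of all genes, 1.50%, 5.15% and 15.4% rose at 1, 3 and 6 h at the adjusted threshold, and 0.148%, 14.7% and 12.7% fell. Nothing is read from the few Kupffer cell and endothelial markers that passed. The part of these cells in the levels of the 6 genes was not tested.

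Scaling moved the balance of all calls. Of all genes called at 1, 3 and 6 h, 91.0%, 25.9% and 54.9% were higher on the scale of the deposited signals, 76.5%, 46.8% and 44.5% after quantile normalization, and 83.6%, 55.5% and 41.8% with the same median for each array. The protocol describes liver samples of separate mice. Each p-value rests on the spread between the 3 such samples within a time, pooled over all 4 groups and moderated by the fit. A divergent array at 1 time therefore also bears on the p-values of other times.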

How the data were processed

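Total RNA of whole liver was hybridised to Affymetrix whole-genome mouse arrays. The deposited values are linear signal intensities for each probe set; the sample labels name MAS5 (version 5.0), whereas the published methods name RMA, and the linear values with many near 0 have the form of the former. The authors' normalization was kept, no scaling was added, and array medians ran from 13.7 to 20.4. Number of arrays, not read depth, limits the precision.

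The 6 genes and all gene lists were chosen with earlier results of these data known. Of 45101 probe sets, 64 control probe sets were left out. A floor was set at the 20th percentile of all values (3.04), and log2 was taken. Probe sets were named from the platform annotation, with 34945 carrying 1 symbol, 932 several and 9160 none, and symbols of 34741 were updated through Entrez identifiers. Each gene was represented by its probe set of highest mean, which gave 18193 genes. Differences between the 4 groups were fitted with limma 3.58.1 in R 4.3.3 (moderated variances, no intensity trend, Benjamini-Hochberg over all genes, threshold 0.05). The fit was tested on simulated data. The 6 genes were given no p-value for levels over time. Their deviations from time point means were compared by exact permutation within time points (1296 orders).

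Named genes were all probe sets of the 6 genes, the 4 largest log2 differences past the threshold in each of 4 lists at each time, Nr3c1, and the 5 genes most like Tsc22d3, Fkbp5, Sgk1 and Lpin1 in course. Other list genes are named only where counts are given, or chosen after their values were seen (Klf15, Igfbp1 at 1 h, Mfsd2a at 1 h, Sgk3). Arrays were not treated as paired by replicate number in the main fit. Alternatives were quantile normalization, the same median for each array, a pseudocount of 1 without a floor, brighter genes only, the mean of all probe sets, an intensity trend, fitting only the compared groups, a change of at least 2-fold, a replicate block and leaving out each array. Promoter windows were those of RefSeq.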

Additional observations from a re-analysis of the deposited data

How the results depend on the processing

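The 1 h difference of Tsc22d3, Fkbp5, Sgk1, Lpin1 and Zbtb16 stayed above 0 under every alternative run. A higher signal at 1 h in these same arrays was part of the choice of the genes, so that sign is no independent support. Of the differences at 1 h against control and at 3 h against 1 h, these moved by more than the spread between replicates. With the mean of all probe sets of a gene, the log2 difference at 1 h was 0.54 for Tsc22d3 and 0.63 for Fkbp5, and that of Tsc22d3 between 3 h and 1 h was -1.25. That same difference became -2.20 for Tsc22d3, -0.11 for Fkbp5, -1.26 for Sgk1, -2.44 for Lpin1 and -0.12 for Hsd11b1 after quantile normalization, and -2.18, -0.073, -1.23, -2.41 and 0.075 in the same order with the same median for each array. The last, for Hsd11b1, is a reversal of -0.26, and its 3 h difference from control reversed from -0.24 to 0.009 under that scaling, which takes out the shift of all genes at 3 h. Among the other differences, the mean of all probe sets moved Tsc22d3 at 3 h against control from -1.54 to -0.71, at 6 h against 3 h from 0.65 to 0.003 and at 6 h against 1 h from -1.87 to -1.24. It moved Fkbp5 at 6 h from 1.91 to 1.13 against control, from 0.89 to 0.49 against 1 h and from 1.30 to 0.80 against 3 h. The same median for each array moved 6 h against 3 h to 0.27 for Tsc22d3, 0.92 for Fkbp5, -0.10 for Sgk1, 1.29 for Lpin1 and -0.62 for Hsd11b1, and Tsc22d3 at 3 h and Hsd11b1 at 6 h against control to -1.29 and -0.61. Quantile normalization moved 6 h against 3 h to 0.37 for Tsc22d3 and -0.41 for Hsd11b1. Leaving out 1 array at a time, Hsd11b1 at 1 h ran from -0.06 to 0.09.

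Fitting only the compared groups put 4 rather than 7 regulatory genes past the threshold at 1 h. For metabolic genes at 1 h, 1 rather than 0 passed with brighter genes only, with an intensity trend, with the mean of all probe sets and with only the compared groups. With the mean of all probe sets 1 receptor and supply gene passed at 1 h rather than 0. A change of at least 2-fold left 0 of 3 of these at 3 h and 3 of 9 at 6 h. Leaving out 1 array at a time gave 0 to 1 metabolic gene at 1 h (1 without replicate 2 of 1 h, replicate 2 of 3 h or replicate 1 of 6 h), 5 to 8 at 3 h, and 1 to 3 receptor and supply genes at 3 h.

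Same-numbered arrays were treated as unpaired. Correlations of deviations ran from -0.006 to 0.041 for 18 same-numbered pairs and from -0.056 to 0.034 for 36 others. These ranges overlap, but 8 of 12 arrays were closest to their own number, and a weak link by number was not tested. With a replicate block the regulatory list had 8 rather than 7 genes past the threshold at 1 h, and no list count moved over 1.5 times. The correlation of Tsc22d3 and Lpin1 ran from 0.73 to 0.94 without 1 array and did not pass the adjusted threshold under any alternative. Signals near the floor, such as G6pc at 3 h, limit how exactly large differences are known.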
